A study of Mus musculus with 4 samples.

Results

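The genes described here are 9 transcription factor genes of the eye field and of retinal progenitors: Pax6, Rax, Sox2, Lhx2, Six3, Six6, Meis1, Meis2 and Nr2e1. They were taken by symbol from the table of 22690 genes, and all 9 were found and passed the filter on low values. The 4 libraries come from retinal cells of C57BL/6 mice at postnatal day 2, kept 30 minutes in medium without serum and then sorted for a 4N DNA content. By their labels the 2 GFP-negative libraries are wild type and the 2 GFP-positive ones are Casz1 cKO, a conditional knockout of the zinc finger factor gene Casz1, so that genotype and sorted fraction cannot be told apart. No source used here gives the Cre driver, the origin of the GFP or how many animals a library holds. Where libraries of a group are not from separate animals, the p-values measure only the spread between these libraries, which may be technical. The column names carry a pair of tags, written A and B, each on 1 library of each group.

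The eye field is the patch of anterior neural plate from which both eyes form, and it is marked by a network of homeobox and related factors that activate one another. Most of these genes stay on in the dividing progenitors of the retina, where they keep cells cycling and able to make several cell types, and some persist in particular neurons or glia after division. Pax6, for example, remains in amacrine and ganglion cells, and Lhx2 in Mueller glia.

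cKO library A stood apart from the other libraries, so each of the 9 genes is given with its value in every library. It held 22326119 reads in genes against 75832360 to 89473701 in the others, and across genes it correlated with them at a Pearson r of 0.902 to 0.918, where the rest reached 0.988 to 0.993. Casz1 itself had normalized counts of 13162 (A) and 11995 (B) in wild type against 8687 (A) and 10772 (B) in cKO, a fold change of −0.38 ± 0.19 (SE) on the log2(normalized count + 1) scale, which all log2 fold changes here use (limma, adjusted p = 0.771). Normalized counts are reads divided by a size factor of each library. The reads of Casz1 can come from outside a deleted part, so they do not measure the deletion. Of 14480 genes tested with limma, 0 passed an adjusted p of 0.05 (0% called), 274 had an unadjusted p under 0.05, edgeR called 0 and DESeq2 called 1 (0.00691%). That 1 gene is not among the 9.

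The 9 genes were abundant in every library. Levels of different genes were compared per length, as the normalized count divided by the kilobases (kb) of merged exons. On this scale Sox2, an HMG-box factor of neural progenitors, was the highest, with 5563 ± 806 (SD, n = 2) for wild-type cells and 6033 ± 483 (SD, n = 2) for cKO cells. It was followed by Lhx2, Pax6, Rax, Nr2e1, Six3 and Six6. By the mean over the 4 libraries these 7 genes ranked between 386 and 996 of the 21798 genes with a length, within the top 4.57%. Meis2 and Meis1 were lower, with ranks of 3240 and 3470, at 1099 ± 66.1 (SD, n = 2) and 1007 ± 109 (SD, n = 2) per kb in wild type. Neighbours in this order mostly overlapped in their ranges over the 4 libraries, as with Sox2 at 4993 to 6374 and Lhx2 at 4192 to 5195. The exception was the step from Six6, at 2663 to 2986, to Meis2, at 933 to 1146. The exon models of Pax6, Meis1 and Meis2 each span more than 10 kb, and any part of a model that is not transcribed in these cells lowers the value per kb.

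**Figure D1:**
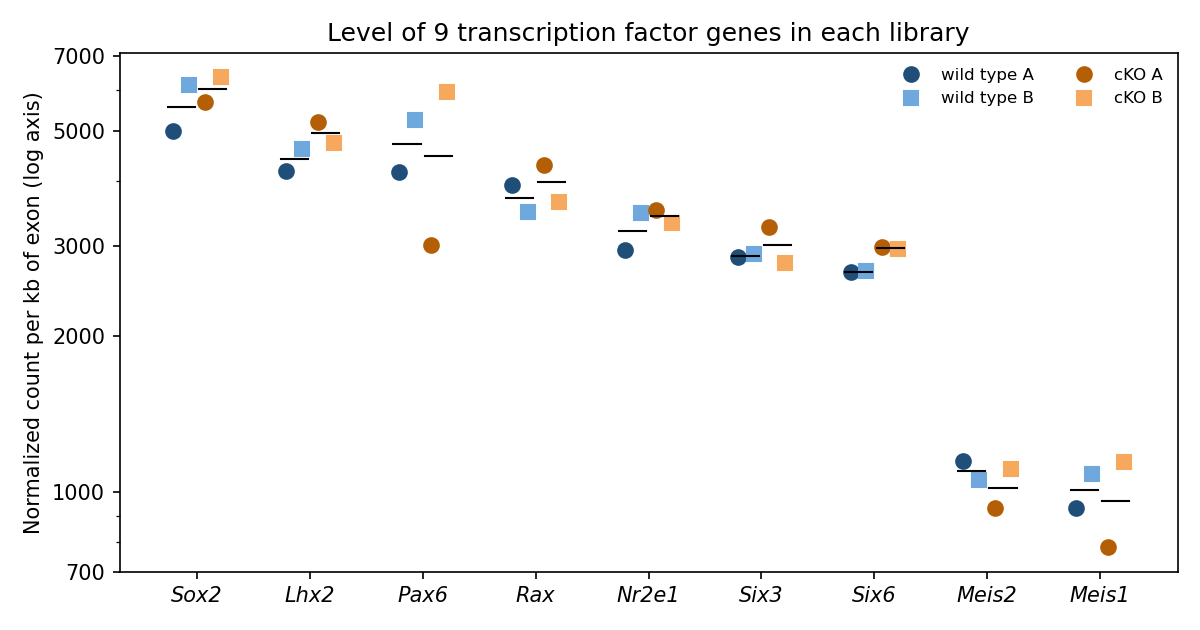
Normalized count per kb of merged exon (log axis) of the 9 genes in each of the 4 libraries, with a short line at each group mean. Sox2 lies highest and Meis2 and Meis1 lie lowest in both groups, and the 4 points of Pax6 are spread from 3001 to 5947.

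None of the 9 genes passed the test between GFP-positive cKO and GFP-negative wild-type cells, and 0 of 9 had an unadjusted limma p under 0.05, against 1.89% of all tested genes. Their log2 fold changes, cKO minus wild type, ran from −0.15 for Pax6 to 0.17 for Lhx2, and 6 of 9 were above 0, against 46.7% of all tested genes. The median of the 9 was 0.10 (0.17 for tag A, 0.07 for tag B), beside −0.03 (−0.05 and −0.0030) over all tested genes. Abundant genes lay higher as well: the 3279 tested genes whose normalized counts averaged 5000 or more, a level chosen after seeing the data, had a median of 0.10, the same as the 9 genes to 2 decimals. In 2 of 9 genes, Lhx2 and Six6, both cKO libraries lay above both wild-type libraries. The background for this is 17.2% of tested genes, so that a count of 2 in 9 is near it. In 0 of 9 both cKO libraries lay below, against 22.3%.

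Rax and Lhx2 act early in the eye field and optic vesicle. Rax, the retina and anterior neural fold homeobox gene and one of the earliest markers of the eye field, had normalized counts of 22989 (A) and 20365 (B) in wild type against 25163 (A) and 21322 (B) in cKO. The groups overlap, with cKO library A the highest and wild-type library B the lowest. Its log2 fold change was 0.10 ± 0.19 (SE) (limma, adjusted p = 0.854). Lhx2, a LIM homeodomain factor needed for the optic vesicle, had 18416 and 20302 in wild type and 22822 and 20794 in cKO. Both cKO libraries were higher, but cKO library B exceeded wild-type library B by little, with log2 ratios of 0.31 for tag A but 0.03 for tag B. The log2 fold change of Lhx2 was 0.17 ± 0.18 (SE) (limma, adjusted p = 0.773).

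Six3 and Six6 are paralogous Six-family homeodomain factors that act largely as repressors through Groucho proteins. Six6 had normalized counts of 10675 (A) and 10745 (B) in wild type against 11970 (A) and 11842 (B) in cKO. The groups do not overlap, and libraries of a group lay close together, as the means of 10710 ± 49.1 (SD, n = 2) and 11906 ± 90.4 (SD, n = 2) show. Six6 in cKO was at 111% of wild type, with log2 ratios of 0.17 for tag A and 0.14 for tag B. The limma test moderates the small spread of a single gene towards that of other genes, and it gave a standard error of 0.16 around a log2 fold change of 0.15 (adjusted p = 0.773). Six3 had 15517 and 15724 in wild type and 17711 and 15105 in cKO, with cKO library A highest and cKO library B lowest. The log2 fold change of Six3 was 0.07 ± 0.18 (SE) (limma, adjusted p = 0.894). The ratio of Six3 to Six6 per kb was 1.07 (A) and 1.08 (B) in wild type against 1.09 (A) and 0.939 (B) in cKO, lowest in cKO library B. Whether it lies above or below 1 depends on the exon lengths used, 5.446 kb for Six3 and 4.009 kb for Six6. By normalized counts Six3 was above Six6 in every library.

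Pax6, a paired-domain and homeodomain factor that keeps progenitors multipotent, varied more between libraries than any other of the 9. It had normalized counts of 48629 (A) and 61512 (B) in wild type against 35093 (A) and 69539 (B) in cKO. The lowest and the highest value are thus both from cKO, and the wild-type values lie between them. The mean for wild-type cells was 55070 ± 9110 (SD, n = 2) and that for cKO cells 52316 ± 24357 (SD, n = 2). The log2 fold change was −0.15 ± 0.36 (SE) (limma, adjusted p = 0.883), and its 95% interval of −1.05 to 0.75 is the widest of the 9. Leaving out cKO library A gave 0.35 (limma, adjusted p = 1.00), a fit that called 0 of the 9 genes and 0.373% of all tested genes. Leaving out cKO library B gave −0.64, which passed (limma, adjusted p = 0.0306). That fit called 1 of the 9 genes but also 39.8% of all tested genes, and lower calls alone made up 26.9% of all tested genes, so that the call is no result about Pax6. The log2 difference between the cKO libraries was 0.99 for Pax6, larger than that of 95.1% of the 3279 abundant genes, and for Six6 it was 0.02, larger than that of 2.47%. At these read numbers counting error is small beside such differences: the 36 values rest on 2943 to 105185 reads, and exact Poisson 95% intervals reach at most 3.68% above and 3.58% below a value, for counting error only.

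The TALE homeodomain factors Meis1 and Meis2, which bind DNA with Pbx partners and activate Pax6 in the lens, lay below wild type at tag A and above it at tag B, as Pax6 did. Meis1 had normalized counts of 9795 (A) and 11420 (B) in wild type against 8223 (A) and 12036 (B) in cKO. Meis2 had 13799 and 12673 in wild type and 11235 and 13323 in cKO. For both genes cKO library A was the lowest, and the groups overlap. The log2 fold changes were −0.09 for Meis1 ± 0.24 (SE) (limma, adjusted p = 0.896) and −0.11 for Meis2 ± 0.18 (SE) (limma, adjusted p = 0.829). The ratio of Meis2 to Meis1 per kb followed the tag and not the group: it was 1.23 in wild-type library A and 1.19 in cKO library A, and 0.971 in wild-type library B and 0.968 in cKO library B. Its log2 difference between the groups was −0.04 for tag A and less than 0.01 in size for tag B, against 0.34 between the wild-type libraries and 0.30 between the cKO libraries.

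Sox2 and Nr2e1 are factors of self-renewing neural progenitors. Sox2 had normalized counts of 10271 (A) and 12617 (B) in wild type against 11707 (A) and 13112 (B) in cKO. At each tag cKO was higher, by 0.19 and 0.06 on the log2 scale, but wild-type library B lay above cKO library A, so the groups overlap. The log2 fold change was 0.12 ± 0.19 (SE) (limma, adjusted p = 0.823). Nr2e1, also called Tlx, is an orphan nuclear receptor that represses cell cycle inhibitors. It had 10899 and 12869 in wild type and 13068 and 12328 in cKO, with wild-type library A the lowest. Its log2 fold change was 0.10 ± 0.18 (SE) (limma, adjusted p = 0.845).

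**Figure D2:**
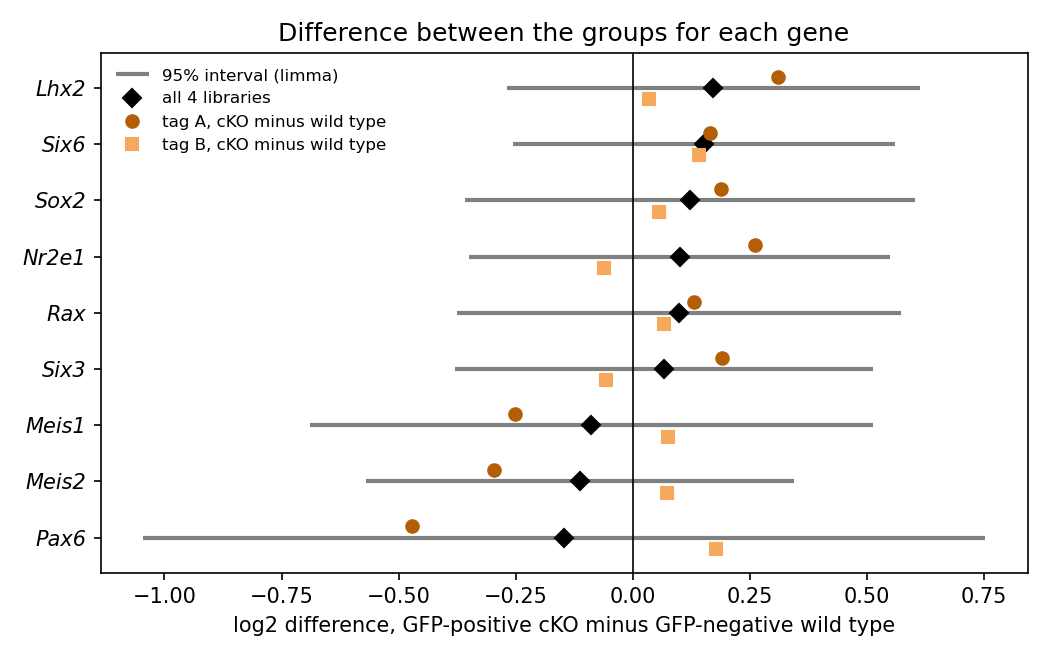
Log2 difference of cKO minus wild type for each gene: diamonds stand for all 4 libraries with limma's 95% interval as a grey bar, circles for tag A and squares for tag B. Every interval crosses 0, from −1.05 to 0.75 for Pax6 and from −0.25 to 0.56 for Six6, and Pax6, Meis1 and Meis2 have their circle below 0 and their square above it.

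The 95% intervals give the changes compatible with these libraries. On the ratio scale the interval of limma ran from 0.838 to 1.47 for Six6 and from 0.484 to 1.68 for Pax6. For the other 7 genes the lower ends lay between 0.620 and 0.830 and the upper ends between 1.27 and 1.53. In the authors' deposited table the ratios of the 9 genes ran from 0.928 for Meis2 to 1.13 for Lhx2, and each had an adjusted p of 1.00 there, where 0.292% of genes with an adjusted p were under 0.05.

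Within tags the 9 genes fell into different directions. At tag A, Pax6 (log2 ratio −0.47), Meis2 (−0.30) and Meis1 (−0.25) were lower in cKO and the other 6 were higher, from 0.13 for Rax to 0.31 for Lhx2. At tag B, Pax6 (0.18), Six6 (0.14), Meis1 (0.08) and Meis2 (0.07) had the largest ratios, and Six3 (−0.06) and Nr2e1 (−0.06) were below 0. Rax, Sox2, Lhx2 and Six6 were higher in cKO at both, 4 of 9 against 32.7% of tested genes, and 0 of 9 were lower at both, against 36.6%. In the remaining 5 of 9 the sign differed between the tags, and the background for these is the rest of the tested genes. The share of tested genes that are lower at tag A and higher at tag B, as Pax6, Meis1 and Meis2 are, was not counted. With 1 library per group at each tag, the difference between the tags was not tested. cKO library A held the lowest value of Pax6, Meis1 and Meis2 and the highest of Rax, Lhx2, Six3, Six6 and Nr2e1. How often this outlying library is the highest or lowest over all tested genes was not counted. These extremes are therefore not read as a trait of the 9 genes.

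**Figure D3:**
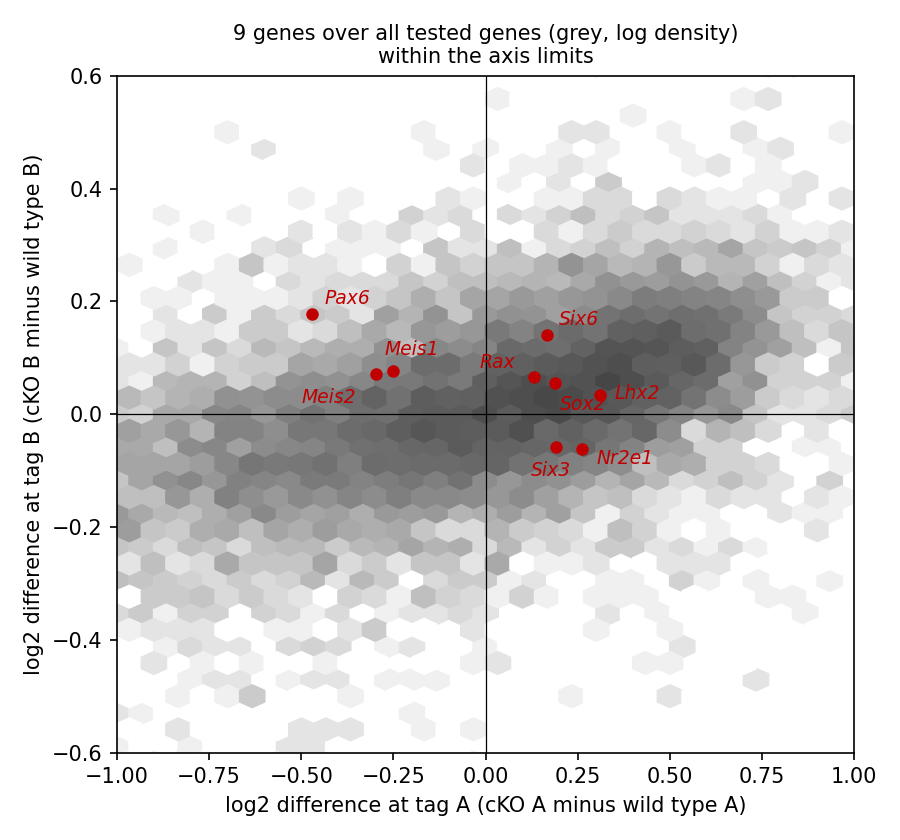
Log2 difference of cKO minus wild type at tag A (x axis) and at tag B (y axis) for the 9 genes in red, over all tested genes within the axis limits in grey (darker for more genes, log scale). Pax6, Meis1 and Meis2 lie in the upper left quadrant, Six3 and Nr2e1 in the lower right and the other 4 in the upper right.

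Markers of other cell types moved between the libraries as well. Of 14 amacrine and horizontal cell markers, whose cells also express Pax6 and Meis2, 12 were lower in cKO for tag A and 3 for tag B (medians −0.51 and 0.13). Their summed normalized counts were 50821 to 59277 in wild type and 48242 to 54577 in cKO, and Chat was at 0 in cKO library A. Gad2, an enzyme of GABA synthesis, had 7254 (A) and 8050 (B) in wild type against 4672 (A) and 9582 (B) in cKO, while Tfap2b had 22389, 16577, 21707 and 17756 in the same order. Gad2 was thus lowest in cKO library A and highest in cKO library B, as Pax6 was. Of 11 ganglion cell markers, which Pax6 also accompanies, 7 were lower for tag A and 1 for tag B, and they had summed counts of 5655 to 8595 in wild type and 4758 to 9478 in cKO, and none at 0 in any library. The neurofilament genes Nefm and Nefl had log2 fold changes of −0.51 and 0.15, and Nefm was at −1.17 for tag A but 0.15 for tag B. The part of these cells in the Pax6, Meis1 and Meis2 values was not tested. In bulk samples fewer cells of a type and less RNA per cell cannot be told apart.

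Progenitor markers, in contrast, were mostly higher in cKO at both tags. Of 9 tested, 8 had a log2 fold change above 0, with a median of 0.33 (0.48 for tag A, 0.19 for tag B), and 0 passed in limma. Both cKO libraries lay above both wild-type libraries in 4 of 9, against 17.2% of tested genes. These markers are abundant, and that share was not counted for abundant genes alone. Genes averaging 5000 or more had a median log2 fold change of 0.10, against −0.03 over all tested genes. Ccnd1, a G1 cyclin, had 235937 (A) and 223698 (B) in wild type against 388895 (A) and 253407 (B) in cKO. Its value was larger in cKO library A than in any other library, as for 5 of the 9 eye field genes. The share of all tested genes with this order was not counted. Of 8 Mueller glia markers, whose cells keep Lhx2, Sox2 and Rax, 6 were higher at each tag, with summed counts of 183646 to 208656 in wild type and 194816 to 302584 in cKO and none at 0. Glul, glutamine synthetase, had a log2 fold change of 0.28 and Dkk3, a secreted glycoprotein, had 0.35. The 2 genes of this list below 0 were Aqp4 at −0.73 and Apoe at −0.15. Which cells express these markers here was not tested, nor was the part of such cells in the Lhx2, Sox2 and Rax values.

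The lists of photoreceptor and microglial markers had the opposite direction. Of 13 photoreceptor markers 12 had a log2 fold change below 0, and 12 lay below both wild-type libraries in both cKO libraries, against 22.3% of tested genes; their summed counts were 112935 to 119118 in wild type and 65216 to 76901 in cKO. Of 12 microglial markers 12 were lower at each tag, with summed counts of 24082 to 25151 and of 2325 to 11390, and Aif1 was at 0 in cKO library A. None of these markers passed in limma, as 0 of the 14480 tested genes did. An unadjusted limma p under 0.05 was found for 7 of 13 photoreceptor and 11 of 12 microglial markers, against 1.89% of tested genes. These lists were chosen with earlier results of these data known, so the counts are not a test. The photoreceptor transcription factor genes Crx and Nr2e3 had log2 fold changes of −0.60 and −1.20, and Csf1r, a microglial growth factor receptor, had −2.59. All 5 astrocyte and optic nerve head markers were below 0 too, with a median of −0.68 (−0.92 for tag A, −0.55 for tag B), Pdgfra at −0.68 and Gfap at −0.51, and S100b was at 0 in cKO library A. Endothelial and mural markers had 4 of 8 higher and a median of −0.16 (tag A −0.35, tag B −0.02). The most abundant were Kdr, a receptor of vascular endothelial growth factor that retinal progenitors also express, at 0.11 and Pdgfrb at 0.15. The 4 lower ones were Pecam1 (−3.45), Cdh5 (−2.29), Rgs5 (−0.75) and Cspg4 (−0.37). Cdh5, Pecam1, Tek and Tie1 were at 0 in cKO library A, and Tek and Tie1 did not pass the filter on low values. In that library 3 reads equal a normalized count of 8.38, and Cdh5 had only 8.35 in wild-type library A. Pigment epithelium and ciliary margin markers had 4 of 8 higher and a median of 0.02. The most abundant were Rlbp1, which is also in the Mueller glia list, at 0.33 and Cdo1 at 0.49. The 4 lower ones were Tyrp1 (−3.75), Otx1 (−0.36), Dct (−0.13) and Pmel (−0.02). Rpe65, Tyr and Tyrp1 were at 0 in cKO library A. Rpe65 and Tyr did not pass the filter, and 1 gene of the list was also at 0 in wild-type library A. The part of these cells in the values of the 9 genes was not tested.

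**Figure D4:**
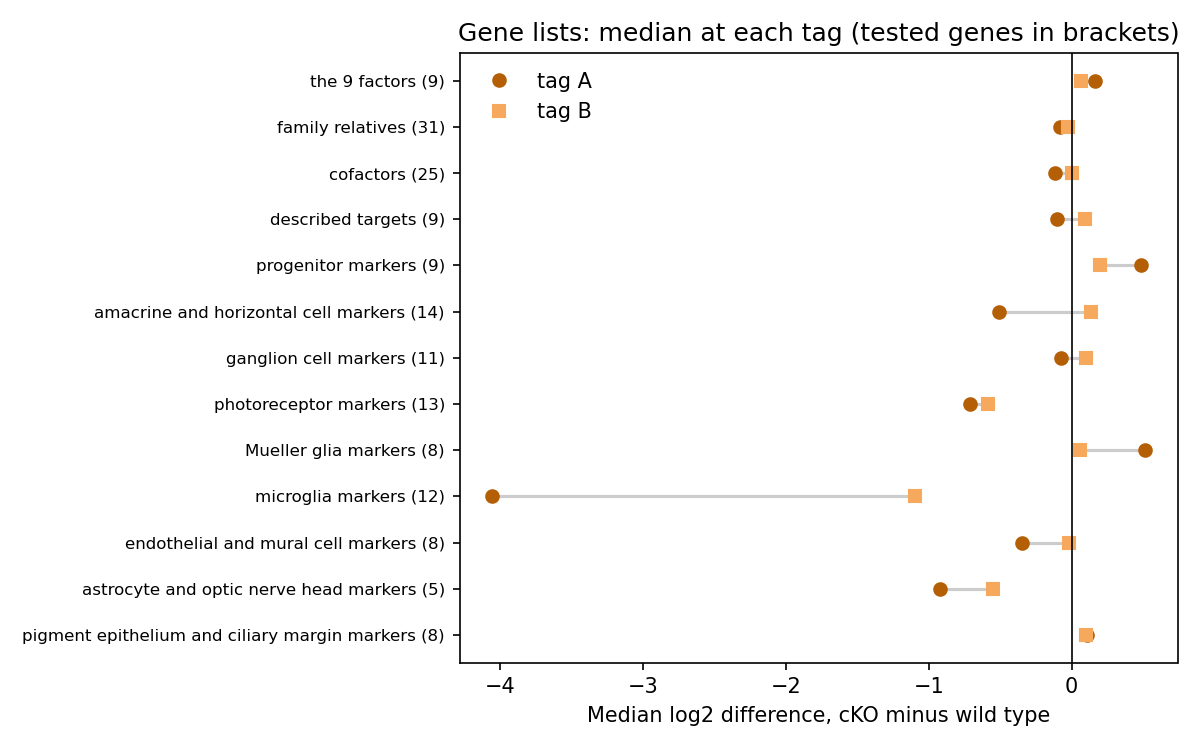
Median log2 difference of cKO minus wild type at tag A (circles) and tag B (squares) for the 9 genes and 12 other gene lists, with the number of tested genes in brackets. The 9 genes lie at 0.17 and 0.07, the amacrine and horizontal list crosses from −0.51 to 0.13, and the microglial list lies lowest at both tags, at −4.06 and −1.09.

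Other genes of the same transcription factor families spread widely around 0. Of 37 listed relatives 31 were tested, 16 higher and 15 lower in cKO; the median log2 difference was 0.01 (tag A −0.08, tag B −0.03), and 0 passed in limma. Otx2, a homeobox factor of photoreceptor and bipolar precursors and a described target of Rax, had 43847 (A) and 39800 (B) in wild type against 28239 (A) and 35662 (B) in cKO. Its log2 fold change was −0.40 ± 0.21 (SE) (limma, adjusted p = 0.771). Both cKO libraries lay below both wild-type libraries in 9 of the 31 relatives and above them in 8, against 22.3% and 17.2% of tested genes. Some relatives also stand in other lists: Otx1 and Pax2 do, and Nr2e3 is a photoreceptor marker.

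Genes of partner proteins of the 9 factors were close to even in direction over the 4 libraries as well. Of 25 cofactor genes, the Eya, Dach and Groucho partners of Six-family factors, the Ldb, Lmo and Ssbp partners of LIM factors and the corepressors of Nr2e1, 11 were higher and 14 lower, with a median of −0.04 (tag A −0.11, tag B 0.0027) and 0 passing in limma. Ldb1, which bridges LIM homeodomain factors such as Lhx2, had 27029 (A) and 32686 (B) in wild type against 17572 (A) and 29281 (B) in cKO, so cKO library A was the lowest. Ssbp3, which stabilises Ldb proteins, had a log2 fold change of 0.03. Over the 25 cofactor genes the log2 fold changes ran from −1.52 for Tle2 to 0.34 for Hdac1, and 16 were lower at tag A and 12 at tag B. Both cKO libraries lay below both wild-type libraries in 6 of 25 and above them in 3, against 22.3% and 17.2% of tested genes. Of 10 genes described as regulated by these factors 9 were tested, 5 higher and 4 lower, with a median of 0.03 (tag A −0.10, tag B 0.09) and 0 passing in limma. Notch1, a receptor described as controlled by Sox2 and Rax, had −0.01, with 58257 and 48058 in wild type and 54207 and 51291 in cKO.

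The sum over the 9 genes was 160990 (A) and 178226 (B) in wild type against 156992 (A) and 189401 (B) in cKO, or 0.252% to 0.320% of all normalized counts. Pax6 made up 30.2% and 34.5% of that sum in wild type and 22.4% and 36.7% in cKO. Without Pax6 the sums were 112361 and 116714 in wild type and 121899 and 119862 in cKO, so that the other 8 genes together had a narrower range than Pax6 alone.

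Genes that overlap the 9 on the genome can affect their counts, since no strand setting of the counting is given. In GENCODE M21 on GRCm38, 18 annotated genes overlap the span of 1 of the 9, 6 of the 9 have such a gene on the opposite strand, and Meis2 and Nr2e1 have none. Only 2 of the 18 have a row in the table. Six6 (chromosome 12, 72939892 to 72944899, plus strand) shares 192 exon bases with the protein-coding gene 4930447C04Rik on the opposite strand. That gene had normalized counts of 2427 (A) and 3270 (B) in wild type against 123 (A) and 2313 (B) in cKO, a log2 fold change of −2.40 ± 1.29 (SE) (limma, adjusted p = 0.771). At tag A it was 19.7-fold lower in cKO, while Six6 was 0.17 higher on the log2 scale. Meis1 (chromosome 11, 18879817 to 19018985, minus strand) shares 896 exon bases with the antisense gene Gm16140, which had 31.7 or less in every library, and 1029 with Gm37818 on its own strand. Rax shares 1604 exon bases with Raxos1, and Six3 (chromosome 17, 85613608 to 85629302, plus strand) shares 106 with Six3os1 and 168 with Gm28528, both on the opposite strand. Gm37818, Raxos1, Six3os1 and Gm28528 have no row, and their share of the reads was not tested. The single-exon gene Sox2 (chromosome 3, 34650405 to 34652461, plus strand) lies inside Sox2ot and shares 0 exon bases with it. The remaining 4 are Lhx2 (chromosome 2, 38339281 to 38369733, plus strand), Pax6 (chromosome 2, 105668900 to 105697364, plus strand), Meis2 (chromosome 2, 115863064 to 116065839, minus strand) and Nr2e1 (chromosome 10, 42561963 to 42583632, minus strand).

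The sequence before the start of transcription was compared as a feature that did not choose the genes. The RefSeq table on GRCm38.p6 held 10 start sites for 8 of the 9 genes, Rax not being used here. The 250 bases before the start had a median GC content of 60.2% and a median of 15 CG pairs, against 52.4% and 6 over 32851 promoters. The CCAAT box, searched as CCAAT on both strands, was in 6 of 10 windows against 33.8% of all, the GC box GGGCGG in 3 of 10 against 32.7%, TATAAA in 1 of 10 against 12.4% and the homeodomain motif TAATTA in 0 of 10 against 4.84%. These matches describe the windows and are not binding sites. The windows of Pax6, the gene with the widest spread between libraries, and Lhx2, the gene with the largest log2 fold change, are shown 5′ to 3′ on the gene's plus strand (chr2:105668646-105668895 and chr2:38339031-38339280), with the searched motifs in capitals.
Pax6: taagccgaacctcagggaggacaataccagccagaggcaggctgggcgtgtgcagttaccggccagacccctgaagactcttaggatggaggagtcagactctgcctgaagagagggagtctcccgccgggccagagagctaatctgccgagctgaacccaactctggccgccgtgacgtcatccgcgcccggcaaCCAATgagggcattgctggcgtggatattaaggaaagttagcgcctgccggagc
Lhx2: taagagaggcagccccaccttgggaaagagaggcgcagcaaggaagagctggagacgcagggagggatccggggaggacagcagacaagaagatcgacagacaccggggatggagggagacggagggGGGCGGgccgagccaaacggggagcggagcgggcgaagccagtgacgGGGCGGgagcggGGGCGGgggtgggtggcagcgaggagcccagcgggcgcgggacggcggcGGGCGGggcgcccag
The Pax6 window holds 1 CCAAT box and no GC box, and the Lhx2 window holds 4 GC boxes and no CCAAT box. Pax6 and Lhx2 each have 2 start sites in that table, and the counts per gene do not separate transcripts from different starts. Their other windows, not shown, and those of Meis2, Meis1 and Nr2e1 overlap annotated exons of the same gene. The windows of Six6, Six3 and Nr2e1 overlap exons of 4930447C04Rik, Gm28528 and Ostm1, in this order. The windows are thus not all outside transcripts.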

How the data were processed

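The authors deposited normalized counts for 4 libraries, a signal equal to the reads of a gene divided by a size factor. The submitters' processing notes name FastQC, TopHat, HTSeq, DESeq and build mm10. Versions, annotation and strand setting were not found in the sources used here. All values (100%) were whole multiples of the column's value of 1 read within 0.01, so reads were recovered. The deposited p-value and adjusted p-value columns, per the file headers, are the authors' own. Since both cKO columns carry the heading replicate 2, they were placed in their group without a number.

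The 14480 genes averaging 10 or more were tested with limma 3.58.1 on log2(normalized count + 1) (R 4.3.3, moderated, mean-dependent prior, two-sided). Benjamini-Hochberg adjustment ran over all of them, with a threshold of 0.05. A check on simulated data came first, but its spread was modelled without cKO library A and its result is not given here. It therefore cannot show how the test performs on data that hold this outlying library. Fold changes are differences of mean log2 values. edgeR 4.0.16 and DESeq2 1.42.0 were run on the reads. Replicates were not duplicates: the chi-square per degree of freedom was 74.1 for wild type and 126 for cKO. The 9 genes and all lists were chosen with earlier results of these data known. Named genes are the 9, Casz1, up to 4 called or else the 2 most abundant genes of each list, genes overlapping a member, and the 2 genes closest in profile. Of 22690 identifiers 21798 (96.1%) were found in GENCODE M21. Some genes that this rule takes are not reported here. Markers at 0 are named beside their list. Alternatives were other pseudocounts, filters, scalings, tools, a block by tag and leaving out each library.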

Additional observations from a re-analysis of the deposited data

How the results depend on the processing

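With 2 libraries per group and 2 residual degrees of freedom, the spread between libraries limits these results more than depth does. The count of 0 genes called by limma stayed at 0 with pseudocounts of 0.5 and 5, no filter, a mean of at least 50, median rescaling, no mean-dependent prior and edgeR. It was 1 with DESeq2 (lowest adjusted p = 0.0375), and the cause was not tested. Leaving out each library gave 0 to 5768 genes and 0 to 1 of the 9, the 1 being Pax6 without cKO library B. Without cKO library A limma called 54 genes (0.373%) and 0 of the 9. Such fits take the lone library's variance from the other group. Directions of the small fold changes depended on single libraries: the log2 fold change ranged from −0.64 to 0.35 for Pax6, −0.36 to 0.19 for Meis1, −0.24 to 0.011 for Meis2, −0.021 to 0.22 for Rax, −0.048 to 0.18 for Six3, −0.026 to 0.27 for Sox2 and −0.020 to 0.22 for Nr2e1. For Lhx2 (0.10 to 0.24) and Six6 (0.14 to 0.16) it stayed above 0. The median of the 9 ranged from −0.02 to 0.14. Median rescaling turned Meis1 to 0.0047 and raised the median of the 9 to 0.19 and that of all tested genes from −0.03 to 0.06. No label says what the tags stand for. The deviations of same-tag libraries from their group means correlate at 0.258 across genes. With the tags as a replicate block limma called 0 genes (1375 at an unadjusted p under 0.05) and 0 of the 9.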

Other observations

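Genes with the profile closest to each of the 9 over the 4 libraries were sought among 8901 other genes averaging 1000 normalized counts or more, by the root mean square distance between log2 levels centred per gene. Among the nearest were Trps1 and Med7 for Pax6 (distances of 0.04 and 0.04), Zfp184 and Mak16 for Meis1 (0.02 and 0.02), and Cwc25 and Dgkz for Meis2 (0.01 and 0.01). They also included Nelfb and Ppp6r3 for Rax, Snapc5 and Zik1 for Sox2, Rab2a and Ldlrad3 for Lhx2, Ift80 and M6pr for Six3, Eid2b for Six6, and Katnal2 and Spred1 for Nr2e1, all at 0.01 when rounded to 2 decimals or lower. With 4 libraries many genes share a flat profile: 1664 genes lay within 0.1 of Six3, 1426 within 0.1 of Six6 and 420 within 0.1 of Meis1, but only 39 within 0.1 of Pax6. Among the 9, the closest pair was Lhx2 and Nr2e1 at 0.05 and the most distant was Pax6 and Rax at 0.49. The member closest to Pax6 was Meis1, at 0.16.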
